A study of Homo sapiens with 2 samples.

Results

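The genes described here are those whose symbols begin with DDX or DHX and a number, the DEAD box and DEAH box RNA helicases. The family and the gene lists used below were chosen with earlier results of these data known. Members were then taken by name, and genes placed on chromosome Y were left out. A probe set counted when the platform annotation gave it exactly 1 symbol of that form. This took 102 of the 36289 probe sets, for 53 of 16692 measured genes. Of the 53 genes, 48 encode proteins; 4 are long non-coding RNA genes named after a neighbouring helicase gene (DDX11-AS1, DDX19A-DT, DDX59-AS1 and DHX9-AS1) and 1 is a pseudogene (DDX11L2). Messenger RNA was measured in a human lymphoblastoid line, B cells made to grow without limit by Epstein-Barr virus, cultured in RPMI1640 with fetal calf serum; the titles spell the line GM06690 and the growth protocol GM06990. There was 1 group with no treatment and 2 samples, replicates 1 and 2, each hybridised to its own Affymetrix Human Genome U133 Plus 2.0 array, and the series title places the data beside Hi-C maps of chromosome contacts. The labels do not state whether the replicates were grown apart, and their spread could therefore be technical.

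DEAD box helicases use ATP to pull apart short RNA duplexes or to strip proteins from RNA, and they do so locally, without travelling along the strand. DEAH box helicases load on single-stranded RNA and move along it, pulling on structures from a distance. Both are named after the amino acids of a conserved motif that binds and hydrolyses ATP, and together they serve nearly every step in the life of an RNA, from transcription, splicing and ribosome assembly to export, translation, decay and the recognition of viral RNA. Cells that divide quickly, such as lymphoblastoid lines, depend on those that build ribosomes and spliceosomes.

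Signals are log2 values of the RMA intensity, the summary of a probe set's probes. A gene was read from its brightest probe set. It was called above background when it exceeded, on both arrays, the 95th percentile of 80 measured reference genes. Each reference gene is known from another tissue such as muscle, liver or eye. Of these 80, 4 exceeded the level on both arrays, the most that the percentile allows by construction. The level was 5.67 in replicate 1 (an intensity of 50.9) and 5.46 in replicate 2 (44.0). Probe sets differ in how well they bind, so a brighter gene is not thereby a more abundant transcript, and the number of arrays limits the precision. The cells matched their label: 7 of 7 measured B-cell marker genes, such as MS4A1 (13.12 and 13.26) and CD79A (11.32 and 11.27), were above background, against 0 of 6 T-cell, 0 of 5 NK-cell, 0 of 6 myeloid and 0 of 5 fibroblast markers.

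Most helicase genes were above background: 44 of 53, or 83.0%, where 52.8% of all measured genes were. Among protein-coding genes alone the counts were 43 of 48 helicases (89.6%) and 58.8% of all. The share of 58.8% also stands beside each count by role below. Those counts cover the members of a role list, which are not always all of its genes. The median signal over the 53 genes was 8.85, beside 6.11 over all measured genes, and over the 48 protein-coding members it was 9.02, beside 6.99 over all protein-coding genes. Of the 16 measured DHX genes that encode proteins 16 were above background, and of the 32 DDX genes 27 were. The 5 protein-coding genes that were not above were DDX4, DDX25, DDX43 and DDX53, all known from germ cells, and DDX60L. The protein-coding members are spread over 18 chromosomes, with 7 on chromosome 17, 5 on chromosome 12 and 4 on chromosome 5. No test between conditions was possible with 1 group, and the arrays hold no second cell type to set these calls against.

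**Figure D1:**
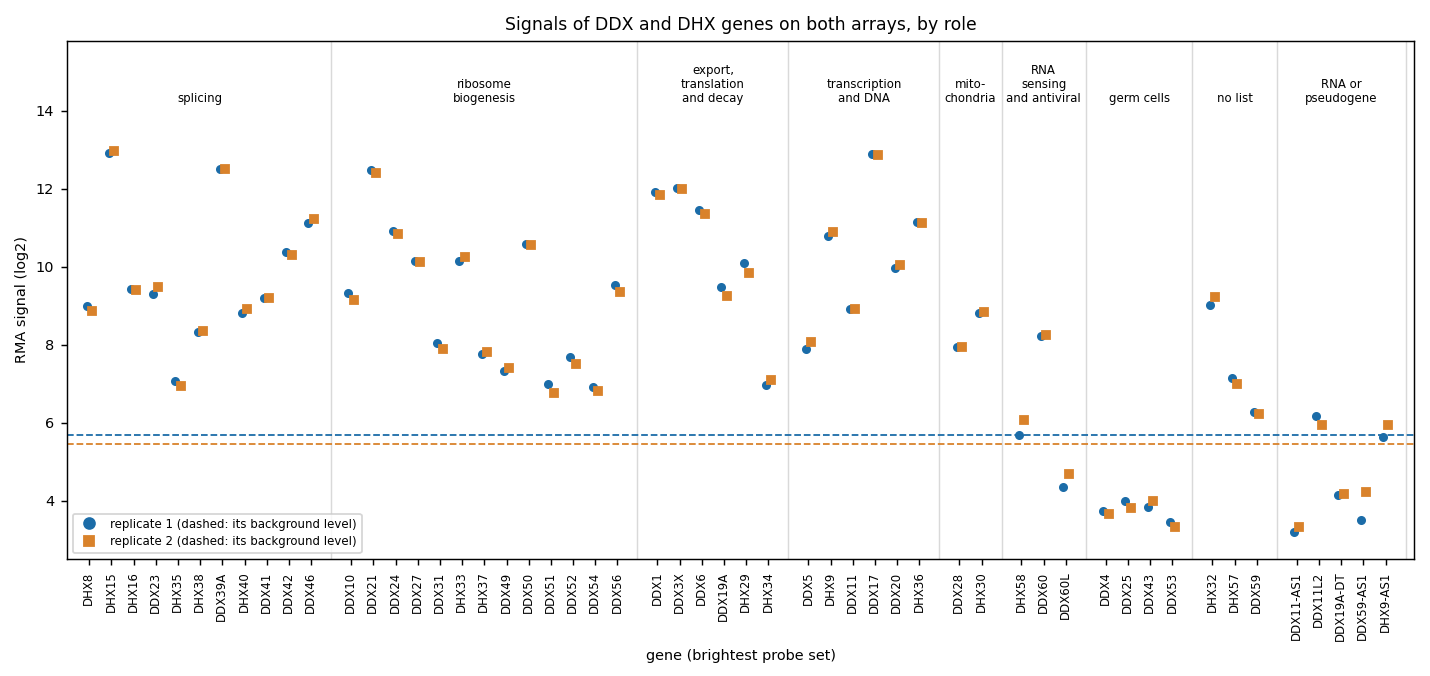
Log2 RMA signal (y axis) of each DDX and DHX gene (x axis, brightest probe set) on both arrays, grouped by role, with a circle for replicate 1, a square for replicate 2 and dashed lines at the background level of each array. The 11 splicing and 13 ribosome genes lie above both lines, the 4 germ-cell genes lie at 4.0 or below, and DHX58 sits on the line of replicate 1.

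The spliceosomal helicases were above background in 11 of 11 cases, with mean signals from 7.0 to 12.95. Each acts at its own step, and those steps can be followed in order. DDX46, which helps the U2 particle settle on the branch site, read 11.13 in replicate 1 and 11.23 in replicate 2. DDX42, a partner of the SF3B complex in that particle, read 10.39 and 10.30. DDX23 belongs to the U5 particle and lets U6 replace U1 at the start of the intron; its signals were 9.31 and 9.48. The next steps belong to DEAH enzymes. DHX16, which activates the spliceosome before the first cut, read 9.43 and 9.41. DHX38 acts between both cuts and read 8.33 and 8.36. For DHX8, which releases the finished messenger RNA, the signals were 8.98 and 8.87. DHX15, which takes the spent spliceosome apart, read 12.93 and 12.98, and its further probe set was also above background. On these 7 genes the arrays lay within 0.18 of each other, and each gene stood well clear of the level on both.

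The remaining members of the splicing list have less specific or wider roles. DDX41, a spliceosome component whose inherited variants predispose to myeloid leukaemia, read 9.20 and 9.21. DDX39A, a close relative of the export factor DDX39B, read 12.52 and 12.51. DHX40 read 8.80 and 8.91, and both of its probe sets were above background. DHX35, found in the catalytic spliceosome, read 7.08 and 6.93 from a probe set ending in _s_at, a mark for probes that match several transcripts. Its only other probe set read 3.77 on both arrays, so the DHX35 call is lost when probe sets ending in _s_at and _x_at are left out.

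The list for ribosome assembly held 17 symbols, of which DDX18, DDX47, DDX48 and DDX55 were no members. The member helicases of ribosome assembly were above background in 13 of 13 cases, beside 58.8% of all protein-coding genes, with a median of 9.24. They work in the nucleolus, where ribosomal RNA is cut and folded. DDX10, of small-subunit assembly, read 9.32 and 9.15. DDX21, which links RNA polymerase I transcription to ribosomal RNA processing, read 12.48 and 12.40, and its second probe set also lay above 12 on both arrays. DDX24, of the large subunit, read 10.91 and 10.84. All 3 were far from the level, and the arrays differed by at most 0.17. DDX27, which acts on the end of the large ribosomal RNA precursor, read 10.14 and 10.11. DDX31, another nucleolar factor of the large subunit, read 8.03 and 7.89. For DDX49, the signals were 7.33 and 7.39. DDX50, the close relative of DDX21, read 10.59 and 10.57. DDX51, needed for the end of the 28S RNA, read 6.98 and 6.77; its other probe set (5.40 and 5.45) was not above the level. The same group holds DHX33, which promotes RNA polymerase I transcription (10.14 and 10.24), and DHX37, which frees the U3 small nucleolar RNA from the assembling small subunit (7.77 and 7.82). Its last members were DDX56 (9.54 and 9.36), DDX52 (7.68 and 7.51) and DDX54 (6.91 and 6.80), nucleolar enzymes whose readings were above the level on both arrays; 1 further DDX54 probe set (5.70 and 5.37) exceeded it in replicate 1 alone.

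Helicases of export, translation and decay were above background in 6 of 6 cases. DDX3X, which helps ribosomes start on messages with structured leaders, read 12.03 and 11.99. DHX29, which binds the scanning small subunit, read 10.10 and 9.84. DDX6, the P-body helicase that joins the CCR4-NOT deadenylase to silenced messages, read 11.46 and 11.35, and all 3 of its probe sets were above background. DDX19A remodels messages as they leave the nuclear pore and read 9.49 and 9.24. Probes for DDX19A may also bind the near-identical DDX19B, and without _s_at probe sets the DDX19A signal was 4.05 on both arrays and its call was lost. DDX1, a part of the transfer RNA ligase complex, read 11.91 and 11.85. DHX34 works with UPF1 in nonsense-mediated decay and read 6.97 and 7.10, by 1 of 3 probe sets.

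The group of transcription and DNA was above background in 6 of 6 cases. DDX17, a coregulator of transcription that also serves in microRNA processing, read 12.90 and 12.86, and its 4 probe sets were all above background. DDX5 is its close relative, and its single-symbol probe set read 7.88 and 8.06; a probe set that names DDX5 with 2 microRNA genes, and so is no member, read 13.31 and 13.33. DHX9, also called RNA helicase A, read 10.79 and 10.90. DHX36, which opens G-quadruplexes in RNA and DNA, read 11.15 and 11.11. DDX20, known as gemin3 of the SMN complex, read 9.97 and 10.05. DDX11 carries the family's letters but is a DNA helicase of sister chromatid cohesion, related to the repair helicase XPD. It read 8.91 and 8.92, and its probe sets may also bind the near-identical pseudogene DDX12P, so its level is uncertain. On all 6 genes the arrays differed by 0.18 or less.

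The mitochondrial pair was above background too. DHX30, of the mitochondrial ribosome and its RNA granules, read 8.80 and 8.84. DDX28, of the large mitochondrial ribosomal subunit, read 7.95 on both arrays, but by 1 of 3 probe sets, and the call was lost without _s_at and _x_at probe sets, where its signal was 4.36 and 4.31. Of the members on no list, DHX32 read 9.01 and 9.23, DHX57 read 7.14 and 6.98, and DDX59 read 6.28 and 6.21. The DDX59 call ended when the 99th percentile set the level (6.40 and 6.35).

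Members that respond to viral RNA were divided, with 2 of 3 above background. DDX60, an interferon-induced antiviral factor, read 8.21 and 8.26 and was clear of the level on both arrays. DDX60L, its neighbour and relative on chromosome 4, read 4.35 and 4.69 by the 1 probe set used and was below the level on both. DHX58, also called LGP2, senses viral RNA without the signalling domains of RIG-I and MDA5. It read 5.68 in replicate 1, where the level was 5.67, and 6.06 in replicate 2, so its call rests on a margin of the second decimal and ended at the 99th percentile. RIG-I itself, once named DDX58, is annotated under its present symbol RIGI and is therefore no member; it read 8.43 and 8.14.

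The promoters of DDX60 and DDX60L are shown because both hold the letters of the interferon-stimulated response element, which IRF and STAT complexes are known to bind, while the genes differed in their call. The motif searched was GAAANNGAAA on both strands, in RefSeq windows of 300 bases (250 before a gene's start and the rest after it, assembly GRCh38.p14). Capitals mark each match, and both sequences read 5′ to 3′ along the gene, on the minus strand. DDX60 spans chr4:168318781-168318855, with the first match beginning 88 bases before the start, and DDX60L spans chr4:168480518-168480587, with the first match 80 bases before it.
DDX60: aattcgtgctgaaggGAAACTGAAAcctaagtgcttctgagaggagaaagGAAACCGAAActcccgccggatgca
DDX60L: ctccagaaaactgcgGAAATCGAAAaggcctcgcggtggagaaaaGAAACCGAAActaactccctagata
Both windows hold 2 matches. Of the 44 protein-coding members with a window, 3 held the motif (6.82%), the last being DHX15 with 1 match, beside 659 of all 15843 protein-coding genes with a window (4.16%). By window, 3.57% of all 35116 held it. No window was used for DHX58. A match is a run of letters and not a measured binding site, and the array did not show whether either protein complex bound there.

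The germ-cell helicases were not above background in any case, 0 of 4. DDX4, the VASA protein that marks the germ line, read 3.72 and 3.66. DDX25, a testis helicase needed for sperm development, read 4.0 and 3.81. DDX43 and DDX53 are cancer-testis antigens, silent in most adult tissues outside the testis; DDX43 read 3.83 and 4.0 and DDX53 read 3.44 and 3.32. Every one of these 8 readings lay at least 1 log2 unit below the level of its array. Each gene had 1 probe set, so the call had no second probe set behind it. Of 10 measured genes that mark germ cells, such as DAZL (4.09 and 3.89) and SYCP1 (3.52 and 3.76), 0 were above background.

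The RNA genes named after helicases were read as follows, on an array where 11.2% of all measured genes that encode no protein were above background. DDX11-AS1 read 3.18 and 3.31, where DDX11 was called above background. DDX19A-DT read 4.13 and 4.16. For DDX59-AS1 the signals were 3.49 and 4.23, both below the level. DHX9-AS1 exceeded the level in replicate 2 alone (5.62 and 5.95), by a probe set ending in _x_at, a mark for probes that may bind other genes. So 0 of 4 partners were above on both arrays, a count close to that share, and 4 of 4 helicase genes beside them were, where 58.8% of all protein-coding genes were. Of those helicase genes, DDX19A lost its call without _x_at and _s_at probe sets, and DDX59 lost it at the 99th percentile. The DDX11 probe sets may also bind DDX12P, and DDX11 could not be read without _x_at and _s_at probe sets. The pseudogene DDX11L2 was above, at 6.18 and 5.93, until the level was set at the 99th percentile.

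**Figure D2:**
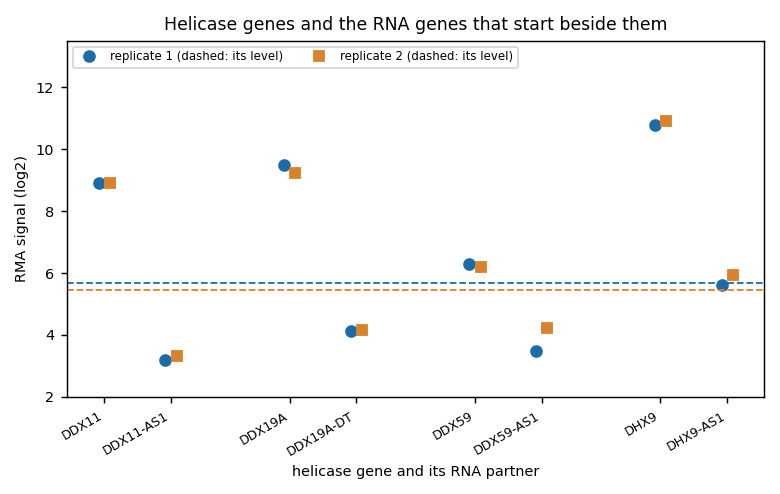
Log2 RMA signal (y axis) of 4 helicase genes and of the RNA gene that starts beside each (x axis), with circles for replicate 1, squares for replicate 2 and dashed lines at each array's background level. The helicase genes lie above both lines on both arrays, and of the partners DHX9-AS1 alone crosses a line, in replicate 2.

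In RefSeq the starts of these pairs lie close together. DDX11 and DDX11-AS1 point away from each other with 12 bases between the starts used, and DDX19A and DDX19A-DT do so with 155. DDX11 also has a second start, which lies 417 bases from that of DDX11-AS1. DHX9-AS1 starts 244 bases inside DHX9 and runs against it, and DDX59-AS1 starts 400 or 229 bases inside DDX59, which has more than one start in the table. The stretches between the back-to-back starts are shown because the same short stretch lies before a gene that was above background and before an RNA that was not. For DDX11 this holds for the start nearer to DDX11-AS1, and the array did not show which start was in use. For DDX11 (chr12:31073800-31073859, GRCh38.p14, plus strand, up to the base before its start) capitals mark the 12 bases between both starts. For DDX19A (chr16:70346748-70346902, plus strand) the stretch runs from start to start, and capitals mark its 18 CpG pairs, the dinucleotide that can be methylated in silent promoters.
DDX11: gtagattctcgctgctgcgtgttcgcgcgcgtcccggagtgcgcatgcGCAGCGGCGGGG
DDX19A: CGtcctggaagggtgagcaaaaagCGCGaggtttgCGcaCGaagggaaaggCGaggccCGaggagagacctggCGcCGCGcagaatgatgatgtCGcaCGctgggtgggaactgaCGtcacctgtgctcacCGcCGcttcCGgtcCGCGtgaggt
Each partner had 1 probe set except DHX9-AS1 with 3, so a partner read at background may still be transcribed in a part its probes do not cover.

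Probe sets of the same gene often gave different readings. Of the 28 members that had more than 1 probe set, 13 were above background on all of them (46.4%, beside 33.6% of all such genes). In 14 some but not all probe sets were above (50%, beside 32.2%), and in DHX9-AS1 none was. Over all 7345 such genes, 2368 were mixed in this way and 2471 were above on all. The rest had no probe set above background and so could not be mixed. Helicase genes were above background more often than all genes. Whether their probe sets disagree more often once that is allowed for was not tested. In 14 of the 28 the brightest and dimmest probe sets lay more than 3 log2 units apart. Of all genes with more than 1 probe set, including those with none above background, 28.0% had such a span. In 12 of these 14 the dimmest probe set was not above background, so no size is given for their spans. DDX3X is one: of its 6 probe sets 4 were above background, with means of 12.01, 11.08, 10.70 and 9.62, and 2 were not, with means of 4.41 and 3.99. The others were DDX10, DDX19A, DDX28, DDX31, DDX42, DDX50, DDX52, DHX30, DHX34, DHX35 and DHX36. DDX17 and DDX6 were above background on every probe set, with spans of 6.22 and 5.51. The dimmest DDX6 probe set read 5.86 and 5.94, close to the level, so the size of the DDX6 span is uncertain. Both probe sets of DHX40 differed by 0.02, those of DHX15 by 0.29 and those of DDX21 by 0.30.

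**Figure D3:**
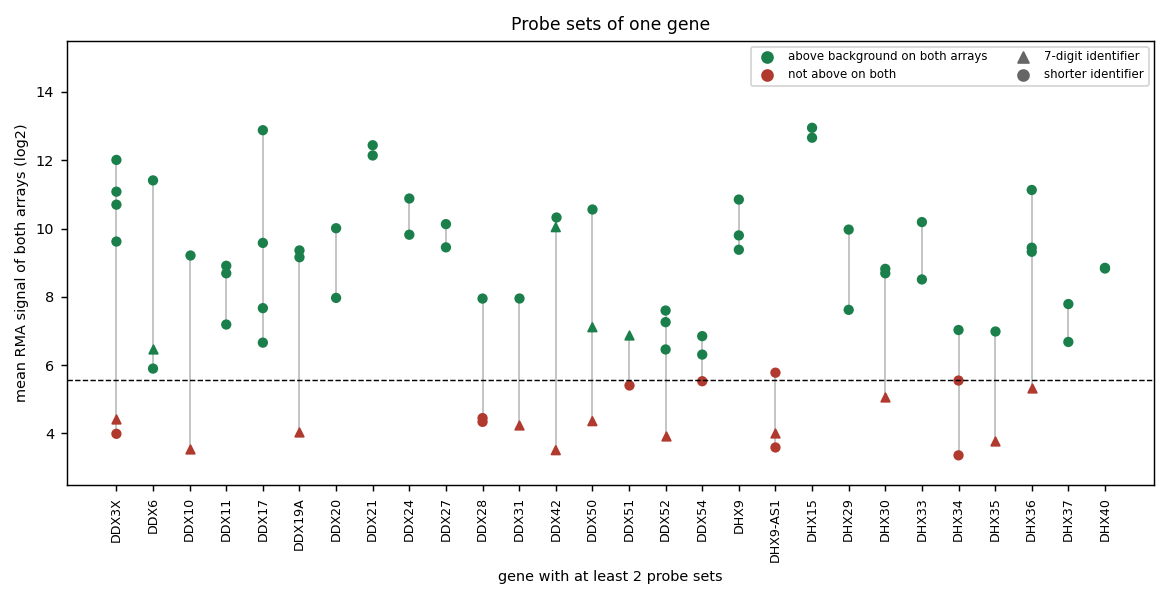
Mean log2 RMA signal of both arrays (y axis) for each probe set of the 28 members with at least 2 (x axis), green where above background on both arrays and red where not, with triangles for 7-digit identifiers and circles for shorter ones; the dashed line is the mean of both background levels. In 13 genes every point is green, in DHX9-AS1 none is, and in 14 genes green and red points stand together.

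The calls were also set out by the length of the probe set identifier. Of the members' 20 probe sets with 7-digit identifiers 4 were above background (20%), beside 16.1% over all such probe sets with 1 symbol. Of their 82 with shorter identifiers 70 were (85.4%), beside 57.5%. Of the members' 28 probe sets not above background, 16 had 7-digit identifiers and 12 shorter ones, and over the protein-coding members alone the numbers were 12 and 10. In 9 of the 14 genes with spans over 3 the dimmest probe set had a 7-digit identifier (37.4% over all genes with such spans), and in 14 of 14 the brightest had a shorter one (95.1%). DDX10 is an example: its shorter identifier read 9.32 and 9.15, and its 7-digit one read 3.47 and 3.64. DDX51 ran the other way, being above background by a 7-digit probe set. DDX60L, the RNA partners DDX11-AS1, DDX19A-DT and DDX59-AS1 and the germ-cell gene DDX53 were each read from a 7-digit probe set alone, and the part this plays in their calls was not tested.

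The counts of helicase genes that differed between the arrays were near the shares over all genes. A total of 45 members exceeded the level on at least 1 array, and between the arrays 0 of them differed by more than 0.58 log2 units, where 0.773% of all such genes did, and 2 differed by more than 0.3 (4.44%, beside 6.67%). These were DHX58, higher in replicate 2 by 0.39, and DHX9-AS1, higher there by 0.34, both close to the level. Below the level on both arrays, DDX59-AS1 differed by 0.74 and DDX60L by 0.34. The median size of the difference was 0.10 over the 45 members and 0.07 over all genes called the same way. Of the 45 members 25 were higher in replicate 1 (55.6%), beside 56.1% of all genes, and the median difference was -0.03 (replicate 2 minus replicate 1), beside -0.02.

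**Figure D4:**
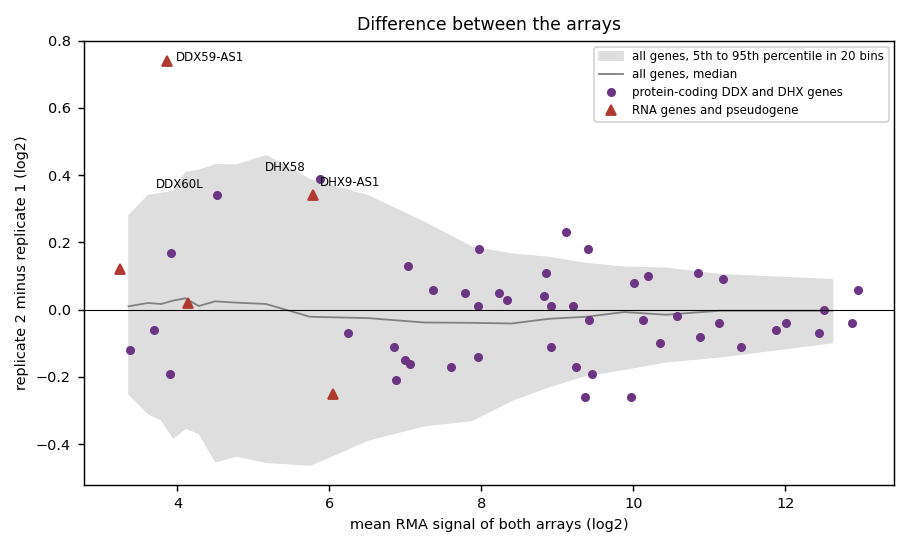
Difference between the arrays (y axis, replicate 2 minus replicate 1, log2) against the mean log2 RMA signal (x axis) for the protein-coding members (circles) and the RNA genes and pseudogene (triangles), over the 5th to 95th percentile (grey band) and the median (grey line) of all genes in 20 bins of signal. Of the 53 members 6 lie outside the band of their bin (11.3%, where 10% of all genes do by construction): DDX59-AS1, at 0.74 and below background, and DDX19A, DDX23, DHX29, DHX32 and DHX9, at sizes of 0.11 to 0.26.

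Most measured genes on the lists of related helicases, partners and pathways were above background, beside 52.8% of all genes and 58.8% of all protein-coding genes. IFIH1 stands both on the list of helicases of other names and on the RIG-I list. Helicases of other names were above background in 12 of 15 measured cases, from 22 listed. EIF4A3, the DEAD box core of the exon junction complex, read 11.76 and 11.63, and AQR, a spliceosomal helicase, read 10.10 and 9.99. EIF4A2, a translation initiation helicase, read 4.01 and 3.60 by the 1 probe set used. IGHMBP2 (4.76 and 4.94) and the germ-line helicase MOV10L1 (3.93 and 4.23) were not above either.

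Partners of the DEAH enzymes, which carry a G-patch that switches the helicase on, were above in 14 of 14 cases. GPKOW, which binds DHX16, read 8.81 and 8.71, GPATCH1 read 7.46 and 7.37, and GPATCH2 read 7.76 and 7.54. Partners and regulators of the DEAD enzymes were above in 16 of 17 measured cases, from 22 listed. Among them were the scaffolds EIF4G1 (10.12 and 10.05) and EIF4G2 (13.13 and 13.08) and the cofactor EIF4B (12.03 and 11.98). The exception was PDCD4, an inhibitor of the EIF4A helicases, at 3.99 and 4.36 by 1 probe set.

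The RIG-I pathway was above background in 14 of 14 cases. The sensor IFIH1, also called MDA5, read 10.56 and 10.33, the mitochondrial adaptor MAVS 8.99 and 8.85, and the ubiquitin ligase TRIM25 10.02 on both arrays. DHX58, the third receptor of this kind, was the one that lay at the level. Splicing proteins that work at the helicase steps were above in 11 of 11 cases, including PRPF3 (9.11 and 8.99), PRPF6 (9.19 and 9.09) and PRPF8 (11.28 and 11.26).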

How the data were processed

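The authors deposited 1 table of probe set intensity values, made with RMA per the submitters' processing notes; the version and any genome build are not given in the sources used here. The deposited intensities run from 6.29 to 33093, a linear scale, so their log2 was taken. Medians were 33.2 and 33.3, and the arrays correlated at 0.997 over 36289 probe sets (Pearson); control and further probe sets were not analysed here.

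Of the probe sets, 29493 had 1 symbol, 1407 several and 5389 none; 29461 were matched by Entrez ID to RefSeq (GRCh38.p14), and the brightest stood for each gene. The helicase genes and lists were chosen with earlier results of these data known. Members were named by role list, when not above background, when the arrays differed by more than 0.3, or when probe sets spanned more than 3 log2 units; of the pathway lists, the first 3 measured and up to 5 not above background. RIGI, single probe set values and the split by identifier length were added after values were seen. With 1 group no test was run. A planned search of the protein sequences for the helicase motif was not run. Python 3.11.15, pandas 2.3.3, numpy 2.4.6 and matplotlib 3.10.9 were used. Alternatives are given in the closing section.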

Additional observations from a re-analysis of the deposited data

How the results depend on the processing

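Of 115 alternative values, 104 stayed within 1.5 times the count given or within the spread of the median. Some of these could not have moved, since a count already at its maximum does not change when the level is lowered. Counts and not shares were compared, so a count could also move because fewer genes could be read. With _x_at and _s_at probe sets dropped, the background level was lower, at 5.03 in replicate 1 and 5.19 in replicate 2. In this setting 39 helicase genes could be read, 28 of them above background, and the median signal was 7.96. The share of all genes above background in this setting is not given here. Helicase counts by role were 6 of 7 for splicing, 1 of 2 for mitochondria and 1 of 2 for RNA sensing. Splicing cofactors were above background in 4 of 6 cases. Of the genes still measured, DDX19A, DDX28 and DHX35 lost their call. At the 99th percentile the RNA sensing count was 1 of 3 and 41 of 53 helicase genes were above background. At the 75th percentile 45 helicase genes were. The share of all genes above background is not given for these levels, nor for other changes of arrays or probe sets. The shares of 52.8% and 58.8% given earlier belong to the main setting alone. How the helicase counts compare with all genes in the other settings was not tested. The median was 7.92 with the mean of all probe sets, and, in alternatives chosen after seeing the data, 9.02 over protein-coding genes and 8.92 with probe sets of several symbols. With a minimum difference of 0.3, 2 genes differed between the arrays. Without replicate 1 the count above background was 45 and without replicate 2 it was 44; the median was 8.87 and 8.80, and 15 and 13 genes had probe sets that disagreed. No paired analysis was possible because there was 1 group. A gene at background by the probe sets used may still be transcribed.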

Other observations

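The name rule leaves out 7 probe sets that carry a helicase symbol together with others, and all 7 were above background on both arrays. One of them names DDX5 with the microRNA genes MIR3064 and MIR5047 and read 13.31 and 13.33, whereas the DDX5 probe set with a single symbol read 7.88 and 8.06. A probe set shared by DDX39B, a readthrough gene and a small nucleolar RNA read 11.87 and 11.89, and a second one 8.08 and 8.18. DDX47, paired with APOLD1, read 12.12 and 11.97. The probe set shared by DDX19A and DDX19B read 9.40 and 9.31, the one shared by DDX11, DDX12P and a further locus 8.35 and 8.04, and the one shared by DDX27 and SS18 10.26 and 10.21. Counting those with exactly 1 DDX or DHX symbol under that symbol adds DDX39B and DDX47 and gives 46 of 55 genes above background. The share of all genes counted in that way is not given. The probe sets that name DDX19B or the pseudogene DDX12P beside a second helicase gene were not added.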
